A study of Mus musculus with 40 samples.

Results

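The alleles described here are edited copies of a lineage-recording array in which a single deletion ran from the first of its 10 Cas9 targets to the last. They were chosen from the deposited list of edits: exactly 1 event, a deletion with or without inserted bases, starting at base 25 or before and ending no more than 3 bases before the last cut or anywhere after it. Of 12767 listed alleles, 264 met this rule (2.07%, 95% exact binomial interval 1.83 to 2.33%), and they are called outer joins below. Because the rule used the positions and the number of events, their starts and ends are given as a description with no test. The number of molecules per allele was not used by the rule.

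The series sampled liver lobes of 5 DARLIN mice, with 40 samples marked E10, E12 or E15.5 in the labels. Files of 1 sample were analysed, from animal YK184 and its right inferior lobe, with the mark E15.5. The second sample of that group (n = 2) was not analysed here. Whether a mark is the day of induction or of collection is not stated in the labels, which also give no age, genotype, treatment or sex. There are therefore no replicates, no groups to compare and no tests. Intervals cover counting error in this library only.

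DARLIN mice carry transgenic arrays of Cas9 targets, and express Cas9 fused to TdT, the terminal transferase that extends DNA ends with untemplated bases. The array studied is the one at Col1a1, a gene for a type I collagen chain at bases 94936224 to 94953042 of chromosome 11 in GRCm38.p6; the place of the array in or beside the gene is not known here. A cell hands its edited array to its descendants, so a shared allele can mark a shared ancestor. When cuts at distant targets are joined, the targets between them are lost and the array can record little more. A lineage mark is useful where the same product rarely arises in different cells.

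Positions count from base 1 of the array, and the cuts of targets 1 and 10 lie after bases 22 and 265. The files hold no array sequence, so the bases around both cuts were read from the lists themselves. Some positions are stated by listed substitutions. At others, 1 letter never stands at the end of the inserted bases of a deletion that starts or ends there, since a letter equal to the lost base would be listed as kept. Both readings were available at 40 positions and gave the same letter at all 40. The 2 unedited cut regions are shown first, with the bases after the cut in capitals, because every product that follows joins parts of them.
Target 1, bases 14 to 28: gacagtcgaCGATGG
Target 10, bases 260 to 271: cgcagaCGATGG
The last 2 bases before both cuts and the first 6 bases after them were the same, a shared run of 8 bases. The last 3 bases before the first cut, bases 20 to 22, were also the same as the first 3 after the last cut.

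The 10 products with the most molecules are shown next, with the exact join, which has fewer, and the deletion of bases 17 to 266, which is described below for its repeated bases. They are read from base 14 to the sixth base past the last cut. Capitals mark the bases that stand between base 22 and base 266, which are the bases between the 2 cuts.
Deletion from base 23 through the third base past the last cut (1589 UMIs): gacagtcgatgg
Exact joining of the 2 cuts, a deletion of bases 23 to 265 (33 UMIs): gacagtcgacgatgg
Deletion of bases 23 to 264 (727 UMIs): gacagtcgaAcgatgg
Deletion of bases 23 to 265 with 1 inserted base (698 UMIs): gacagtcgaGcgatgg
Deletion of bases 24 to 265 (244 UMIs): gacagtcgaCcgatgg
Deletion of bases 23 to 265 with 1 inserted base (222 UMIs): gacagtcgaTcgatgg
Deletion of bases 23 to 265 with 2 inserted bases (215 UMIs): gacagtcgaAGcgatgg
Deletion of bases 23 to 263 (199 UMIs): gacagtcgaGAcgatgg
Deletion of bases 23 to 264 with 1 inserted base (126 UMIs): gacagtcgaAAcgatgg
Deletion of bases 23 to 265 with 2 inserted bases (105 UMIs): gacagtcgaGGcgatgg
Deletion of bases 21 to 265 (86 UMIs): gacagtccgatgg
Deletion of bases 17 to 266 (78 UMIs): gacgatgg

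The sequences show a limit of the working name for these alleles, which is that all 10 targets are lost. The exact joining of the 2 cuts read the same as the unedited first target over all 15 bases known there. That 1 outer join, with 33 UMIs, therefore kept an unedited stretch at target 1. Every member lost the inner targets, since each deletion ran from target 1 to target 10. The deletions removed 239 to 259 bases with a median of 244, and 209 to 250 bases net of inserted ones.

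Outer joins were few alleles with many molecules. Reverse transcription put a unique molecular identifier (UMI) on each RNA copy of the array, so a UMI stands for 1 recovered RNA molecule. More cells and more RNA per cell cannot be told apart. Outer joins were also 209 to 250 bases shorter than the unedited array, and whether length changed how many molecules were recovered was not tested. The 264 outer joins held 5868 of 32342 UMIs (18.1%, exact interval 17.7 to 18.6%), against 2.07% of alleles. They had 22.2 UMIs each on average, and the 12503 other alleles had 2.12. The median was 2 UMIs for outer joins and 1 for the others, so the mean rests on a few large products. The 167 other alleles with a single event did not share this abundance. They held 405 UMIs, 2.43 each on average, and their largest, a deletion of bases 23 to 238, had 22.

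The molecules were spread very unevenly among the outer joins. The 3 largest held 51.4% of their UMIs, the 10 largest 71.8%, and the 9 with at least 100 UMIs held 70.3%. At the other end, 89 outer joins had 1 UMI, 56 had 2 and 119 had at least 3. The effective number of outer joins, the exponential of the Shannon entropy over UMIs, was 25.6 against 264 listed. For the other alleles it was 7518 against 12503 listed. The chance that 2 UMIs drawn at random carried the same allele was 11.1% among outer joins and 0.031% among the others. By this measure the outer joins were the least distinctive of the compared sets, and 2 UMIs of the other single-event alleles matched in 1.06% of draws.

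A few junctions carried most of the molecules. A junction is the pair of the first and last base lost, whatever was inserted. There were 63 junctions, of which 34 held 1 allele each. The exact junction of bases 23 and 265 had 53 alleles and 1625 UMIs (27.7% of outer-join UMIs, exact interval 26.6 to 28.9%). The junction of base 23 with the third base past the last cut, called the +3 junction below, had 1617 UMIs (27.6%, 26.4 to 28.7%) but only 10 alleles, and the intervals of these 2 overlapped. The junction of bases 23 and 264 followed with 34 alleles and 1056 UMIs. Smaller ones were 24 to 265, next by UMIs, then 23 to 263 with 230, 23 to 266 with 171, 21 to 265 with 89 and 23 to 269 with 86.

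Starts were more uniform than ends as listed. Base 23, directly after the first cut, was the start for 4988 UMIs (85.0%, exact interval 84.1 to 85.9%) and 165 alleles. The next starts by UMIs were base 24 with 325, base 22 with 126, base 21 with 122 and base 19 with 105. Ends were divided mainly over 3 positions. Base 265, directly before the last cut, ended 2163 UMIs (36.9%), the +3 base ended 1653 (28.2%) and base 264 ended 1123 (19.1%). Bases 266 and 263 followed with 271 and 244 UMIs. The +3 junction's product without inserted bases (1589 UMIs) can also be written with an earlier start and its end at base 265. Base 265 as an end would then hold more UMIs than base 23 as a start. The order by UMIs thus rests on how this product is listed. By alleles, 62.5% started at base 23 and 35.2% ended at base 265, an order that does not rest on this product. The lowest start among alleles with at least 3 UMIs was base 7 (5 UMIs) and the highest end was base 273 (4 UMIs).

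As listed, more outer joins lost bases beyond the last cut than beyond the first. No base outside the 2 cuts was lost in 118 outer joins with 3293 UMIs (56.1%). Bases were lost beyond the last cut alone in 75 alleles with 2065 UMIs (35.2%), of which 1589 UMIs were the single deletion at the +3 junction without inserted bases. They were lost beyond the first cut alone in 47 alleles with 279 UMIs (4.75%), and beyond both in 24 alleles with 231 UMIs (3.94%). The deletion at the +3 junction can also be written as one of bases 20 to 265, since either copy of the repeated 3 bases could be the one kept. Written so, this 1 allele and its 1589 UMIs would move from the loss beyond the last cut alone to the loss beyond the first alone, which turns the order by UMIs but not by alleles.

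At the edges of the rule the alleles were small. The 5 members that start at base 25 had 45 UMIs together and the 6 that end 3 bases before the last cut had 42. Just outside, 17 single-event alleles with a start or an end up to 5 bases outside these limits had 49 UMIs in all. The largest of these was a deletion of bases 15 to 261 with 11 UMIs.

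Joins that are not outer joins used the same starts and ends, in other proportions. Of 6468 other joins from target 1 to an inner target, 75.4% (exact interval 74.3 to 76.5%) started at base 23, and of outer-join alleles 62.5% (56.4 to 68.4%) did. By UMIs the shares were 76.7% and 85.0%. Of 5407 other joins from an inner target to target 10, 55.4% (54.1 to 56.7%) ended at base 265, 14.8% (13.8 to 15.7%) at base 264 and 7.08% (6.41 to 7.80%) at the +3 base. Of outer-join alleles, 35.2% (29.5 to 41.3%) ended at base 265, 20.5% (15.8 to 25.8%) at base 264 and 6.44% (3.80 to 10.1%) at the +3 base. The intervals lay apart at base 265, nearly touched at base 264 and overlapped at the +3 base. In these counts an outer join enters once per product, while another join enters once for every allele that carries it. The shares by allele are therefore unlike in unit, and the part this plays in the gaps was not tested. By UMIs base 265 ended 36.9% of outer joins and 51.5% of the others, and the +3 base ended 28.2% and 8.23%. Of the 1653 outer-join UMIs at the +3 base, 1589 came from 1 product, the clean deletion at the +3 junction.

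That largest product lies on the repeated 3 bases named above. Clean deletions, those without inserted bases, can leave such a repeat, or microhomology, when both ends of the loss carry the same letters. Of 36 clean outer joins, 3 had a repeat of 3 bases. These were the deletion at the +3 junction with 1589 UMIs and those of bases 17 to 266 with 78 UMIs and bases 19 to 264 with 7 UMIs. Together they held 48.0% of the 3488 clean UMIs. A further 22 clean outer joins had no repeated base among the bases known and held 1473 UMIs, of which the deletion of bases 23 to 264 had 727. For 1 of these, the deletion of bases 23 to 271 with 20 UMIs, an unknown base leaves the repeat as a lower bound. The exact joining of the cuts had the longest repeat, of at least 8 bases, and 33 UMIs. That repeat lies on both sides of each cut, and its product reads as the unedited first target. It is thus unlike the repeat at the +3 junction. Whether UMIs followed the length of the repeat was not tested.

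Clean joins from the inner targets to target 10 give a view of the +3 base that the choice of alleles did not use. Only joins that start at the base directly after the inner cut are counted here. The bases before the cut differ between some of the targets, so the repeat at the +3 base was not the same for every starting cut. From target 3, with 4 repeated bases, 136 of 368 clean joins ended at the +3 base (37.0%, exact interval 32.0 to 42.1%). From targets 4 and 6, each with 3 repeated bases, 34 of 171 (19.9%) and 33 of 316 (10.4%) did. From target 2, with 1 repeated base, 10 of 125 did (8%). From targets 5, 7, 8 and 9, with no repeated base, the counts were 1 of 333, 0 of 223, 3 of 300 and 0 of 146. The highest share without a repeat was 1% (0.207 to 2.89%), below the intervals of the targets with any repeat. With a repeat, more than 1 pair of ends gives the same product, and all are listed at 1 position. A higher share with a repeat is thus partly set by the listing, and whether it exceeds that part was not tested. A count of 0 of 223 allows up to 1.64% by the exact interval, and 0 of 146 up to 2.49%.

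Exact joining of the 2 cuts was rare among outer joins. Among outer joins that lost no base beyond the cuts, it made up 33 of 3293 UMIs (1.0%, exact interval 0.691 to 1.40%). In the joins between all other pairs of targets it made up 4767 of 20446 UMIs (23.3%, 22.7 to 23.9%) and 2435 of 10422 joins (23.4%). Those joins were counted by the same rule, with no base lost beyond either cut.

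The share of exact joins went with whether the first 3 bases after both cuts were the same. In 17 other pairs of targets they were the same, as they are for targets 1 and 10, so that an exact join rebuilds the bases around the first cut. There 170 of 4768 joins were exact (3.57%, exact interval 3.06 to 4.13%), with pair values from 1.28 to 23.1% and a median of 5.24%. In the 27 pairs where they differed, 2265 of 5654 joins were exact (40.1%, 38.8 to 41.4%), with pair values from 0 to 82.8% and a median of 37.4%. The pair value of 0 came from targets 3 and 4, which had 10 joins. The contrast was clear for joins that start at target 1. Exact joins to targets 2, 3, 7 and 8, whose bases after the cut are the same as those of target 1, were 1.46%, 1.33%, 1.83% and 1.79% of joins. To targets 4, 5, 6 and 9, where they differ, exact joins were 26.2%, 20.2%, 26.4% and 16.6%, with no overlap between the 2 sets. The outer-join value of 1.0% was nearer the first set, but it is a share of UMIs and the others are shares of joins.

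Inserted bases were found in most outer joins but in fewer of their molecules. As listed, 228 of 264 alleles carried inserted bases (86.4%, exact interval 81.6 to 90.3%), with 2380 of 5868 UMIs (40.6%, 39.3 to 41.8%). Junctions differed widely in this. At bases 23 and 265 inserted bases were in 98.0% of UMIs, spread over 52 different inserts. At bases 23 and 264 they were in 31.2% of UMIs over 33 inserts, and at bases 23 and 266 in 60.8% over 22. At the +3 junction they were in 1.73%, over 9 inserts with 28 UMIs.

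Within a junction a few short inserts held most of the molecules. At bases 23 to 265 the largest inserts were G with 698 UMIs, T with 222, AG with 215, GG with 105 and AT with 53, and the effective number of products was 8.45. At bases 23 to 264 the product without inserted bases had 727 UMIs, and the inserts A, T and GA had 126, 54 and 28. GAA and GGA followed there with 21 and 18 UMIs, and the effective number was 3.81. At bases 23 to 266 the clean product had 67 UMIs, and the inserts A, G, GA and AT had 30, 22, 8 and 7; GT and AG had 6 each, and the effective number was 8.25. The +3 junction was close to a single product, with an effective number of 1.13.

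The listed inserts understate what these junctions share, because an inserted base equal to the lost base beside it is listed as a shorter deletion. The product listed as a deletion of bases 23 to 264 is the exact join with A between the cuts, as its sequence above shows. Likewise the deletion of bases 24 to 265 is the exact join with C. Whether such a base was kept from the array or added cannot be told apart from the sequence. Rewritten in this way, the 118 outer joins with no loss beyond the cuts became 118 different strings between base 22 and base 266. One was empty, the exact join, and the others ranged from 1 base to 34 bases. Clean deletions were 9 of the 118, and held 1300 of the 3293 UMIs, but after rewriting only the 33 UMIs of the exact join had nothing between the cuts.

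A single base between the cuts was the commonest form. The 4 possible strings of 1 base were all listed, and held 1891 UMIs (57.4% of the 3293, exact interval 55.7 to 59.1%, and 32.2% of all outer-join UMIs). A was between the cuts in 727 UMIs (38.4% of these 1891, 36.2 to 40.7%), G in 698 (36.9%, 34.7 to 39.1%), C in 244 (12.9%, 11.4 to 14.5%) and T in 222 (11.7%, 10.3 to 13.3%). The intervals of A and G overlapped, as did those of C and T, while both purines lay above both pyrimidines. The same order of purines over pyrimidines held in joins between other targets. There, 4256 joins with 1 base had G in 41.2%, A in 34.5%, C in 12.2% and T in 12.1%.

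All 16 possible strings of 2 bases were listed too, with 984 UMIs. The most frequent was AG with 215 UMIs, then GA with 199, AA with 126 and GG with 105. These 4 strings of purines alone held 645 of the 984 UMIs (65.5%), and the 4 of pyrimidines alone held 25 (2.54%). The rarest of the 16, CC, had 3 UMIs. With 3 bases, 37 of 64 possible strings were listed (57.8%), with 222 UMIs, and the largest were AGA with 35, GAA with 28 and TAG with 26. With 4 bases, 20 of 256 were listed (7.81%), with 84 UMIs. Purines made up 78.6% (77.4 to 79.8%) of bases in strings of 1 to 3 bases by UMIs, and 81.7% (81.2 to 82.2%) in other joins. Strings may include kept array bases, and the last 3 bases before the last cut are AGA. Listed inserts of all lengths in outer joins held 71.4% A or G by UMIs, and 63.2% with each counted once. Those in turn leave out added bases equal to the lost base beside them.

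From 1 base upwards, the mean number of molecules per string was lower for longer strings in the lengths compared. The empty string, the exact join, had 33 UMIs. The mean was 473 UMIs for 1 base, 61.5 for 2 bases, 6 for 3 bases and 2.72 for 4 or more. The medians were 471, 41, 2 and 2 UMIs. The smallest string of 1 base, T with 222 UMIs, had more UMIs than the largest string of 2 bases, and the largest string of 3 bases had fewer than the median of 2 bases. The chance that 2 UMIs with the same string length carried the same string was 31.4% for 1 base, 13.0% for 2 bases, 7.24% for 3 bases and 11.8% for 4 bases, so it did not fall at every step. For 5 bases it was 8.11%, over 38 UMIs, and longer strings had at most 19 UMIs at any length up to 8 bases. The 60 strings of 4 or more bases held 163 UMIs together.

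Inserts of 4 or more listed bases gave 91 outer joins, but few molecules. They held 214 UMIs (3.65% of outer-join UMIs), and 41 of them had 1 UMI. The largest were 2 products of 15 UMIs each, a loss of bases 23 to 270 with ACGAT and one of bases 23 to 271 with TGGA. Their sequences were close to larger products. The first read as the deletion of bases 23 to 264 with 1 G fewer past the last cut. The second read as the clean +3 deletion with 1 added A. The longest insert with at least 3 UMIs stood in the loss of bases 7 to 265, with 5 UMIs, and was 19 bases long.
Insert in the deletion of bases 7 to 265: CGTGCGCGTATCGTATCGG
The longest of all had 34 bases and 2 UMIs, at bases 23 and 265.
Longest insert: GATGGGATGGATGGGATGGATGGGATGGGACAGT
It holds GATGG 6 times with overlaps, the last 5 of the 6 bases that follow both cuts. Of 43 outer joins with 6 or more inserted bases, 6 held GATGG and 4 held all 6 of those bases.

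Which products recur was read from inserts and from other joins, since 1 library cannot show the same product arising in different animals. Of 136 different inserts, 103 stood at 1 junction only. T was inserted at 18 junctions, G at 13 and C at 9, and these 3 stood at more junctions than any other insert. The listing limits this order, since a single base equal to the lost base at either edge is never listed as inserted. A is thus barred at junctions ending at base 265 and C at those starting at base 23. Between the cuts, A was the commonest single base with 727 UMIs and T the rarest with 222. In joins between other targets, A between the cuts was found in all 44 other pairs, G in 43, and C and T in 41 each. AG was found in 41 pairs, GG in 39, GA in 37 and AA in 36. Each pair is a different join, so these strings were found at many separate junctions in this lobe. They can hold kept array bases as well as added ones, and the share of each was not tested. TAG, with 26 UMIs among outer joins, was found in 11 pairs.

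These values rank the outer joins as clone marks. The clean deletion at the +3 junction alone held 27.1% of outer-join UMIs (exact interval 25.9 to 28.2%) and 4.91% of all UMIs in the library. The 4 products with 1 base between the cuts held a further 32.2%, and every string of 1 or 2 bases that can be made was present. Folding inserts that differ by 1 base at a junction left 160 of the 264 outer joins. Whether rare strings were misread copies of larger products was not tested. Strings of 4 bases filled 7.81% of what is possible, but their 84 UMIs could not have filled all 256. The chance that 2 of these UMIs matched was 11.8%, above the 7.24% for 3 bases, so the low filling does not show better marks. Whether the UMIs of any 1 product came from 1 clone or from many cells was not tested. Outer joins with under 10 UMIs were 215 of the 264 alleles and held 534 UMIs (9.10%).

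Further edits beside an outer join were nearly absent. Only 20 alleles with several events, with 22 UMIs, held a join of targets 1 and 10, and all 20 of their other events lay before the first cut. Of the joins in them, 4 were the clean +3 deletion, 3 that of bases 23 to 264, and 3 and 2 were the loss of bases 23 to 265 with T and with G. The other 8 alleles each carried a different join, and all of these joins were also listed alone as outer joins, some with few UMIs.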

How the data were processed

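RNA from 1 liver lobe was analysed. Per the labels' protocols, it was reverse transcribed with an array-specific UMI primer, and the array at Col1a1 was amplified by nested PCR. The authors deposited 2 text lists without header: the edits of each allele, and in the same order its 12-base UMIs. They hold no read numbers, so read depth is unknown. Per the submitters' processing notes the build was mm10; the sources used here do not give the allele caller, its settings or its filters.

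UMIs were counted per allele from the list: 32342 UMIs over 12767 alleles, none listed under several alleles. The layout of cuts every 27 bases comes from general knowledge of the array. Other joins from target 1 end at base 46 or after, and those to target 10 start at base 241 or before. Strings between cuts were taken where at most 2 bases after the first and 3 before the second cut were kept; 4 joins with an unknown base were left out. Shares have 95% Clopper-Pearson intervals for counting error only. On simulated arrays, every base, string and repeat that the scripts gave as known was right. Arrays with the same base beside both cuts were left out of the simulation, so the repeat shared by targets 1 and 10 was not covered. The members, lists and naming rule (10 largest alleles, 8 largest junctions, 5 leading inserts at 3 junctions, 5 leading starts and ends, extremes with at least 3 UMIs, the 3 inserts at most junctions) were chosen with earlier results of these data known. The exact joins, repeats and shared strings were chosen after their values were seen. Alternatives were UMI minimums, collapsed UMIs, folded inserts, the largest member left out, several events, and narrower or wider ends; rewriting between the cuts was added after seeing the data. Python 3.11.15, numpy 2.4.6 and scipy 1.17.1 were used.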

Additional observations from a re-analysis of the deposited data

How the results depend on the processing

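Of 105 values for 11 results under 10 alternatives, 65 lay within the interval of the reported value, or within 1.5 times where it has none, and 40 did not. Minimums of 2, 3 and 5 UMIs per allele kept 175, 119 and 81 outer joins, and gave them 23.8%, 28.7% and 36.7% of UMIs and 3.72%, 4.87% and 7.71% of alleles. At 3 and 5 UMIs the 5 largest held 61.4% and 62.9%, UMIs without inserted bases were 61.4% and 62.8%, inserts at bases 23 and 265 were 26 and 16, and mean UMIs were 47.6 and 68.3. At 5 UMIs the largest junction held 29.0% and the commonest start 86.4%. Folding 104 outer joins whose inserts differ by 1 base left 160, with 1.26% of alleles, an effective number of 13.5, 74.3% of UMIs in the 5 largest, 64.5% without inserted bases, 22 inserts at the junction with most members and 36.7 UMIs each. Without the largest product the outer joins held 13.9% of UMIs, the 5 largest 49.2% and the largest junction 38.0%. The commonest start then held 79.4%, the commonest end 50.5%, and 44.4% had no inserted bases. The effective number was 38.3 against 25.6, only just within the limit of 1.5 times. Narrower ends (starts at bases 20 to 25 and ends within 3 bases of the last cut; 199 alleles) gave 16.6% of UMIs, 1.56% of alleles, 64.7% in the 5 largest, 30.2% in the largest junction, 89.4% and 38.8% at the commonest start and end, and 67.1% A or G among inserted bases, against 63.2%. Rewriting joins between the cuts, chosen after seeing the data, gave 56.1% in the largest junction, 37.8% without inserted bases, 90.8% and 60.0% at the commonest start and end, and 117 inserts at the exact junction; by construction it counts kept bases as inserted. For the other changes the cause was not tested. Wider ends, several events and collapsed UMIs changed no result. No paired analysis was possible because 1 library was analysed. The number of UMIs limits rare products: 89 outer joins rest on 1 UMI.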
